A study of Lens culinaris with 18 samples.

Results

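Embryos were compared with seed coats that still carried the endosperm, in seeds of the lentil cultivars CDC Redmoon and CDC Gold (Redmoon and Gold hereafter). The members of this comparison are 12 of the 18 RNA-seq libraries of the series, chosen by their labels: 3 Redmoon embryo and 3 Gold embryo libraries against 3 Redmoon seed coat and 3 Gold seed coat libraries. The other 6 libraries came from embryos and seed coats of M11, a natural line with a mutated LcLTP3b gene. They shared the filter on low counts, the scaling and the estimate of the spread, and served as a line for comparison. The seeds were mature green seeds of chamber-grown plants. "Seed coat" below always means seed coat with endosperm, since these were taken as a single sample and their RNA cannot be told apart. The sources do not say if the 3 libraries per group stem from different plants, so p-values measure the spread between these libraries, which may be technical. In bulk tissue, fewer cells of a type and less RNA per cell cannot be told apart either.

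A legume seed consists of the embryo, mostly cotyledons in which storage proteins, starch and lipids are laid down, and the coverings of maternal origin that surround it. The endosperm of a pulse seed is largely consumed while the embryo grows. The 7S vicilins are trimeric storage globulins that fill the protein storage vacuoles of the cotyledons, and the lentil allergen Len c1 derives from them. LcLTP3b encodes Len c3, which belongs to the lipid transfer proteins, small secreted proteins that bind lipids.

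The deposited counts covered 58243 genes. Library totals ranged from 3270275 to 22958727 counts in the 6 embryo libraries and from 7571791 to 24309401 in the 6 seed coat libraries, and the shallowest was Gold embryo replicate 3. No 2 replicates agreed within sampling noise, with a chi-square of at least 1.82 per degree of freedom in the cultivar groups. The biological coefficient of variation within the groups was 5.35% in Redmoon embryos and 9.53% in Gold embryos, against 3.33% in Redmoon seed coats and 3.12% in Gold seed coats. Genes had no names in the files, and no genome or gene annotation was used here. The embryo libraries were therefore checked against the vicilin genes only, and the labelled seed coat tissue was not checked against markers of its own.

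The cultivar labels of the libraries did not match across the tissues. Between Redmoon and Gold, 116 genes had at least 2 CPM (counts scaled to the library total) in all 3 libraries of a cultivar and at most 0.1 CPM in all 3 of the other, in both tissues. For all 116 the cultivar with expression in embryos lacked it in seed coats, and for 0 of them the same cultivar was on in both tissues. The groups are named here by their labels. The main comparison is the mean of both embryo groups minus the mean of both seed coat groups, and an exchange of the cultivar labels within a tissue leaves this mean as it is.

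Embryo RNA was concentrated on few genes. The 16 vicilin genes took 34.1%, 33.1% and 35.3% of all counts in the Redmoon embryo libraries and 35.9%, 34.2% and 36.0% in the Gold embryo libraries. In the seed coat libraries they took 0.715%, 0.743% and 0.783% in Redmoon and 0.170%, 0.178% and 0.194% in Gold. The embryo and seed coat libraries did not overlap, and the mean share in embryos was 74.95 times that in seed coats (two-sided exact permutation test over libraries, p = 0.00216, the smallest p that 6 against 6 allow). Within a labelled cultivar the ratio was 45.7 in Redmoon and 196 in Gold (two-sided exact permutation test, p = 0.1 each, the smallest p that 3 against 3 allow). It was 189 with Redmoon embryos beside Gold seed coats and 47.4 with Gold embryos beside Redmoon seed coats, so the level followed the seed coat group. Vicilin counts were present in every seed coat library. How much of them came from embryo RNA carried over at dissection was not tested.

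**Figure D1:**
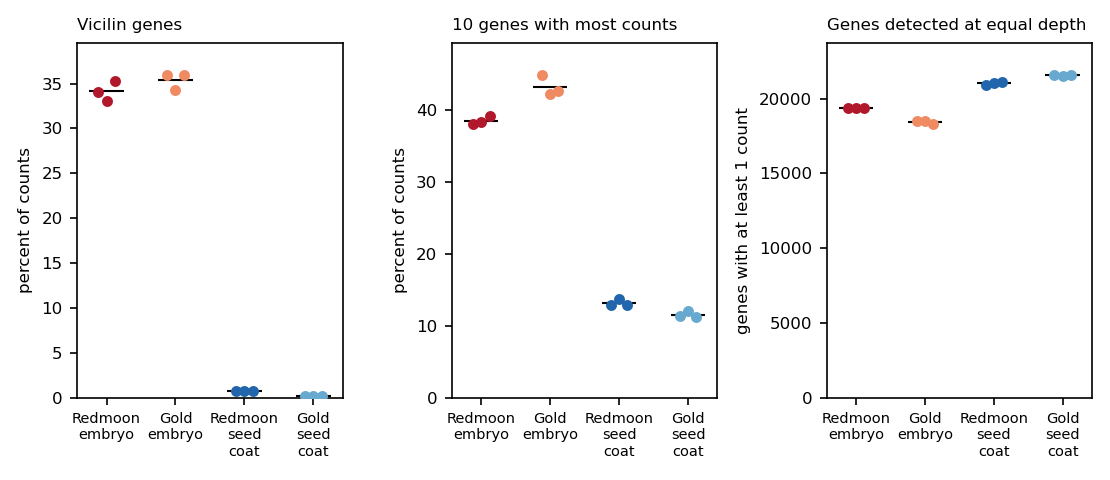
Share of counts on the 16 vicilin genes, share on the 10 genes with the most counts of each library, and genes with at least 1 count after thinning to 3270275 counts (left to right), for 3 libraries a group; bars are group means. The embryo libraries sit at 33.1% to 36.0% vicilin and 38.0% to 44.8% on 10 genes, while the seed coat libraries sit at 0.170% to 0.783% and 11.2% to 13.7%.

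The 10 genes with the most counts in a library held 40.8% ± 2.77 of the counts in embryos (SD, n = 6) and 12.3% ± 1.01 in seed coats (n = 6; two-sided exact permutation test, p = 0.00216). Both cultivars are pooled in these SDs and in the permutations, and the embryo means were 43.18% in Gold and 38.45% in Redmoon. With the vicilin genes set aside the shares in embryos and seed coats were 31.75% and 12.4%, and again no embryo library overlapped with a seed coat library (exact permutation p = 0.00216). At an equal depth of 3270275 counts, between 18328 and 19407 genes had at least 1 count in the embryo libraries, against 20938 to 21601 in the seed coat libraries (two-sided exact permutation test, p = 0.00216). Without thinning the ranges were 18328 to 23170 genes in embryos and 22797 to 26061 in seed coats. Thus seed coat libraries spread their counts over more genes, and the mean difference (embryo minus seed coat) was -2378 genes. When the vicilin counts were removed before thinning, it was -1455 genes.

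Most genes differed between the tissues. Of 22081 genes that passed the filter on low counts, 9330 were higher in embryos and 9077 were lower (edgeR quasi-likelihood test, Benjamini-Hochberg adjusted p under 0.05), that is 42.3% and 41.1% of the genes tested. A change of at least 2-fold was called for 5931 genes higher in embryos (26.9%) and 6059 genes lower in embryos (27.4%). All 6 embryo libraries lay above all 6 seed coat libraries for 5946 genes (26.9%) and below them for 6241 genes (28.3%). The middle of the distribution of log2 fold changes (embryo minus seed coat) was even, with quartiles at -1.31 and 1.17 and a median of 0.01. Its ends were uneven. At a log2 fold change of at least 6 in size, 588 genes were higher in embryos and 1184 were lower, and at 8 or more the numbers were 53 and 538. The genes called at 2-fold held 77.2% to 85.0% of the counts of the embryo libraries where they were higher in embryos, against 9.69% to 10.4% of those of the seed coat libraries. Those lower in embryos held 2.25% to 3.22% of the counts in embryo libraries and 53.4% to 54.2% in seed coat libraries. These shares follow from how the genes were called and were not tested. The largest differences were 9.93 for a gene higher in embryos and -14.32 for a gene lower in embryos. The ends include genes with few counts in a tissue. With at least 10 counts in every cultivar library, the 2-fold calls were 2518 higher and 1861 lower in embryos. The ends were not counted under that filter. The direction of the calls depended on the scaling of the libraries. TMM, which scales libraries so that most genes keep their level, put 50.7% of the calls higher in embryos. Library totals alone put 22.7% higher, with the median of all genes at -1.15, and totals without the vicilin genes put 34.7% higher, with the median at -0.56.

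**Figure D2:**
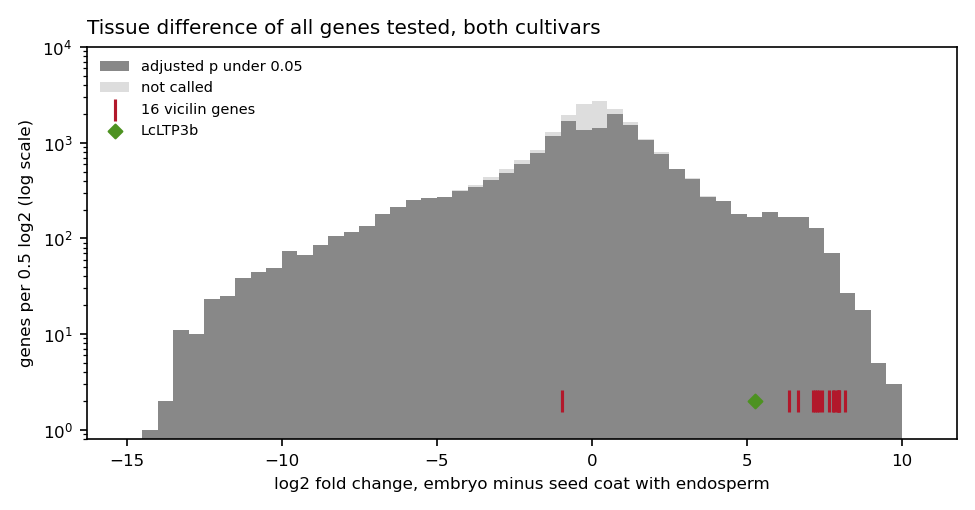
Number of genes (log scale) by log2 fold change, embryo minus seed coat with endosperm, for 22081 genes; red ticks mark the 16 vicilin genes and the green diamond LcLTP3b. The seed coat side reaches -14.32 and the embryo side 9.93. By the fit, 15 vicilin genes lie between 6.37 and 8.16, including 1 with 0 counts in all seed coat libraries.

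The vicilin genes were taken from a list of the study, which compared them in these libraries, and how the list was drawn up is not stated. Their direction is therefore not taken as independent evidence. All 16 passed the filter. By edgeR's quasi-likelihood test, 15 of the 16 were higher in embryos, beside 42.3% of all genes tested, and 1 was lower, beside 41.1%. There were also 15 higher and 1 lower in each of the 4 pairs of an embryo group with a seed coat group. Of all genes tested, 43% were higher and 40.9% lower in Redmoon, 39.6% and 40.6% in Gold, 39.7% and 42.1% for Redmoon embryos beside Gold seed coats, and 41.6% and 36.6% for Gold embryos beside Redmoon seed coats. The median log2 fold change of the members was 7.53, beside 0.01 for all genes tested. It was 7.48 when the member with 0 counts in all seed coats was set at its lower bound. Of all genes tested, 117 (0.53%) had a log2 fold change above the members' median, and 8 of these 117 were vicilin genes. Vicilin genes are related in sequence, so reads may have been split between members, and single members are less certain than their sum. Counts are not per gene length, so levels are compared within a gene only. They are given below as TMM-normalized CPM, CPM with the TMM-scaled library size as total, which is not a share of the library.

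On chromosome 3, as numbered in the gene identifiers, lie 4 members. Lcu.2RBY.3g008770 had 99000, 98100 and 102500 TMM-normalized CPM in Redmoon embryos and 169200, 146900 and 153600 in Gold embryos, against 1203, 1213 and 1336 in Redmoon seed coats and 250.7, 248.6 and 290.9 in Gold seed coats. The lowest embryo library was thus far above the highest seed coat library. On this scale Gold was the higher cultivar in embryos and the lower in seed coats. As CPM of library totals the cultivars overlapped in embryos, with 70790, 69870 and 72810 in Redmoon and 78200, 70660 and 75480 in Gold. The tissues differed by a log2 fold change of 7.77 (standard error 0.07, adjusted p = 1.62e-66 in edgeR). Lcu.2RBY.3g014420, Lcu.2RBY.3g014440 and Lcu.2RBY.3g014450, whose identifiers are close together, had log2 fold changes of 7.82, 7.89 and 7.98. Lcu.2RBY.1g038070 on chromosome 1 and Lcu.2RBY.4g077560 on chromosome 4 had 7.12 and 7.26.

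Chromosome 6 held 7 members. The pair Lcu.2RBY.6g038150 and Lcu.2RBY.6g038160 had log2 fold changes of 8.16 (standard error 0.06, edgeR adjusted p = 3.07e-68), the largest of the family, and 7.65. Lcu.2RBY.6g038550 had 96910, 98490 and 101600 TMM-normalized CPM in Redmoon embryos and 4935, 3992 and 2639 in Gold embryos, against 26.6, 23.5 and 33.3 in Redmoon seed coats and 201.1, 218.4 and 231.9 in Gold seed coats. Every embryo library was above every seed coat library, but the cultivars stood in opposite order in the tissues. Its log2 fold change over both cultivars was 7.97 (standard error 0.09). Lcu.2RBY.6g038570 and Lcu.2RBY.6g038590 had 7.93 and 7.31. Lcu.2RBY.6g035140, a member with fewer counts, had 744.3 to 809.0 TMM-normalized CPM in Redmoon embryos and 251.5 to 295.9 in Gold embryos, against 4.17 to 5.89 in Redmoon seed coats and 3.64 to 4.80 in Gold seed coats, a log2 fold change of 6.65. Lcu.2RBY.6g038600 was near the limit of detection. It had 25 to 34 counts per library in Redmoon embryos and 1 to 9 in Gold embryos, against 0 counts in all 6 seed coat libraries. Those zeros allow up to 0.0999 CPM over the Redmoon and 0.0436 CPM over the Gold seed coat libraries (3 counts over a group, counting error only). The gene was at least 34.5-fold higher in embryos, with the seed coat level set at 3 counts over all 6 libraries.

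**Figure D3:**
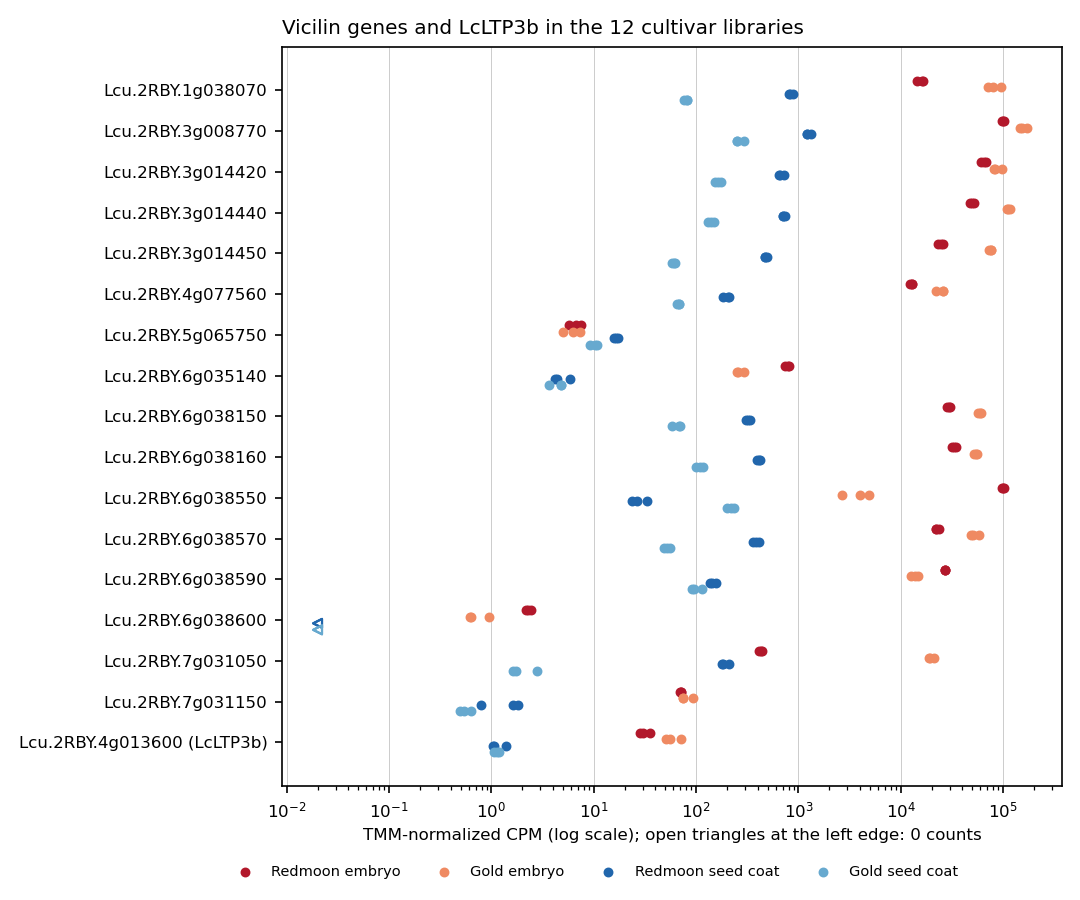
TMM-normalized CPM (log scale) of the 16 vicilin genes and LcLTP3b in each of the 12 cultivar libraries, 3 points per group; open triangles stand for 0 counts. Points of embryo libraries (red, orange) lie right of the seed coat points (blue) for 15 vicilin genes and LcLTP3b and left of them for Lcu.2RBY.5g065750, and the cultivars stand in opposite order in the tissues for Lcu.2RBY.6g038550.

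On chromosome 7, Lcu.2RBY.7g031050 had 438.9, 415.7 and 435.0 TMM-normalized CPM in Redmoon embryos and 20890, 19330 and 18690 in Gold embryos. In seed coats it had 178.6, 183.4 and 210.4 in Redmoon and 1.64, 1.75 and 2.80 in Gold. The tissues did not overlap, although Redmoon embryos and Redmoon seed coats stood close together. The log2 fold change was 7.19 (standard error 0.07). Lcu.2RBY.7g031150 was a low member with 8 to 28 counts per seed coat library. It had the smallest change of the 14 members higher in embryos with counts in seed coats, 6.37 (standard error 0.10).

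Lcu.2RBY.5g065750 was the vicilin gene that went the other way. It had 5.76, 7.48 and 6.77 TMM-normalized CPM in Redmoon embryos and 7.39, 6.25 and 4.98 in Gold embryos, against 16.3, 17.2 and 15.6 in Redmoon seed coats and 9.11, 10.3 and 10.8 in Gold seed coats. All 6 embryo libraries lay below all 6 seed coat libraries. It was lower by a log2 fold change of -0.95 (standard error 0.10, adjusted p = 7.39e-13 in edgeR), with -1.29 within Redmoon and -0.60 within Gold. It was a small part of the family, 0.291% of the vicilin counts in Redmoon seed coats and 0.755% in Gold seed coats.

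The members were compared over the pairs of groups, since the labels of the cultivars did not match. For the 14 members that were higher in embryos and had counts in seed coats, the log2 fold changes ran from 1.17 to 11.78 within Redmoon (SD over members 2.23) and from 4.16 to 13.20 within Gold (SD 2.18). Crossed pairs were narrower. They ran from 6.97 to 8.83 with Redmoon embryos beside Gold seed coats (SD 0.61) and from 5.78 to 7.52 with Gold embryos beside Redmoon seed coats (SD 0.51). In M11 they ran from 5.87 to 7.97 (SD 0.53). The make-up of the family showed the same. Between Redmoon embryos and Redmoon seed coats 25.3% of the vicilin counts were on different members, and between Gold embryos and Gold seed coats 25.6% were. This share was 9.30% for Redmoon embryos beside Gold seed coats, 6.92% for Gold embryos beside Redmoon seed coats and 9.10% in M11. Lcu.2RBY.6g038550 took 20.7% of the vicilin counts in Redmoon embryos and 16.3% in Gold seed coats, but 0.519% in Gold embryos and 0.490% in Redmoon seed coats. These values are descriptions with no test, and the same groups enter several of the pairs. Across all genes, the size of the tissue difference depended on the cultivar for 12267 genes (55.6% of those tested) as labelled and for 9173 genes (41.5%) in the crossed pairing (edgeR interaction tests, adjusted p under 0.05).

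**Figure D4:**
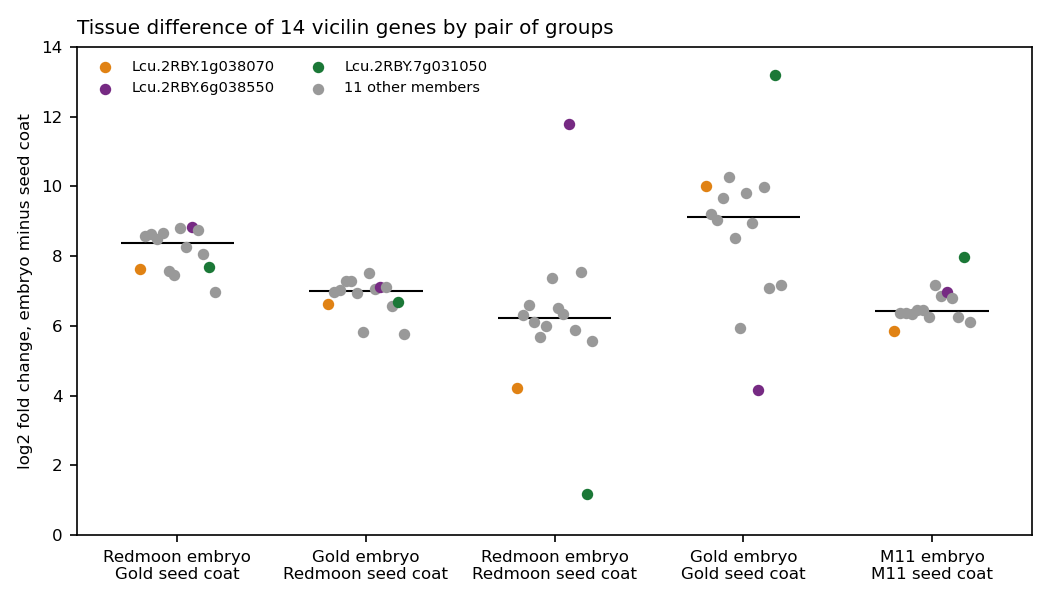
Log2 fold change, embryo minus seed coat, of 14 vicilin genes for the crossed pairs, the pairs as labelled and M11; bars are medians over the genes. Pairs as labelled spread from 1.17 to 11.78 (Redmoon) and 4.16 to 13.20 (Gold), against 6.97 to 8.83 and 5.78 to 7.52 for the crossed pairs and 5.87 to 7.97 in M11.

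LcLTP3b (Lcu.2RBY.4g013600), the Len c3 gene, was also higher in embryos. It had 28.2, 35.5 and 30.3 TMM-normalized CPM in Redmoon embryos and 51.2, 70.9 and 55.4 in Gold embryos, against 1.06, 1.38 and 1.05 in Redmoon seed coats and 1.20, 1.05 and 1.12 in Gold seed coats. The seed coat libraries of both cultivars overlapped at this low level, where the gene rested on 14 to 38 counts per library. The tissues differed by a log2 fold change of 5.26 (standard error 0.10, adjusted p = 8.29e-48 in edgeR), which ran from 4.78 to 5.74 over the 4 pairs of groups. In M11 the gene had 55.1, 52.7 and 58.3 TMM-normalized CPM in embryos and 30.0, 29.5 and 32.1 in seed coats, a log2 fold change of 0.86. The tissue difference was larger in the cultivars than in M11 by 4.40 (standard error 0.15, edgeR adjusted p = 1.63e-33). On this scale the embryo libraries of Gold and M11 overlapped, whereas in seed coats all M11 libraries lay above all cultivar libraries. As CPM of library totals, the gene had 23.65, 34.1 and 27.21 in Gold embryos and 60.45, 58.7 and 64.31 in M11 embryos, without overlap. A called difference from M11 of at least that of LcLTP3b, in the same direction, was found for 251 genes. Whether reads from similar LTP genes were assigned to LcLTP3b was not tested.

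Outside these genes, 2 per direction were taken, those whose weakest change among the 4 pairs was strongest. Lcu.2RBY.7g068190 had 502.8, 486.5 and 531.6 TMM-normalized CPM in Redmoon embryos and 748.1, 768.4 and 766.5 in Gold embryos, against 2.12, 2.95 and 2.81 in Redmoon seed coats and 0.851, 0.769 and 0.425 in Gold seed coats (log2 fold change 8.86, standard error 0.07, edgeR adjusted p = 2.15e-67). Lcu.2RBY.5g050030 had 26150 to 29340 in Redmoon embryos and 15880 to 19620 in Gold embryos, against 146.5 to 184.9 in Redmoon seed coats and 78.4 to 89.6 in Gold seed coats (log2 fold change 7.55). Both were above the seed coats in every embryo library. On the other side, Lcu.2RBY.3g072260 had 0.569, 0.726 and 0.264 TMM-normalized CPM in Redmoon embryos and 1.25, 1.27 and 0 in Gold embryos, against 2918, 2858 and 3001 in Redmoon seed coats and 8517, 8126 and 8630 in Gold seed coats (log2 fold change -12.60, standard error 0.09, edgeR adjusted p = 7.46e-69). Lcu.2RBY.5g059060 had 2.25 to 3.98 in Redmoon embryos and 7.47 to 16.02 in Gold embryos, against 43960 to 49020 in Redmoon seed coats and 26070 to 32090 in Gold seed coats (log2 fold change -12.35). This gene had 12 to 154 counts per embryo library, against 499168 to 917653 per seed coat library. What these 4 genes encode is not given in the files.

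Genes on in a single tissue by the limits below were mostly seed coat genes. Only 10 genes had at least 2 CPM in all 6 embryo libraries and at most 0.1 CPM in all 6 seed coat libraries, while 339 genes showed the reverse. The limit of 0.1 CPM means 0 counts in Gold embryo replicate 3 and in Redmoon seed coat replicate 2, where 3 counts come to 0.917 and 0.396 CPM. The numbers were 12 and 359 without the first of these libraries and 15 and 350 without the other. With TMM-normalized CPM in place of CPM they were 36 and 203, and with at least 5 CPM required they were 1 and 224, so seed coat genes were more numerous under each rule. Of the 339, 134 had 0 counts in all 6 embryo libraries. Their median level in seed coats was 13.5 CPM, the highest reached 671.9 CPM, and together they took 1.29% of the seed coat counts. No vicilin gene was in either set. RNA of a tissue carried over at dissection into samples of the other could keep a gene from counting as off. How far this affected the numbers was not tested. In M11, which the rule had not used, 146 of the 339 (43.1%) met the same limits, beside 396 of all 58243 genes. The level was higher in M11 seed coats for 334 of the 339. Of the 10 embryo genes, 0 met the limits in M11, beside 64 of all genes, and 10 had the higher level in embryos. The M11 seed coat libraries are shallow enough that at most 0.1 CPM means 0 counts in each of them. For comparison, the tissue difference had the same sign in M11 and the cultivars for 82.1% of all genes tested, and for 92.1% of the genes at least 2-fold lower in cultivar embryos.

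The differences were then read against M11, whose 6 libraries share the filter, scaling and spread of the fit but do not enter the difference between cultivar embryos and seed coats. In M11 the vicilin genes took 13.8% to 14.2% of the counts in embryos and 0.201% to 0.226% in seed coats. Of the 5931 genes at least 2-fold higher in cultivar embryos, 5091 (85.8%) were called higher in M11 embryos too and 201 were called lower, where 39.9% of all genes tested were called higher in M11. Of the 6059 genes lower in cultivar embryos, 5193 (85.7%) were called lower in M11 and 167 higher, where 39.6% of all genes tested were called lower. The size of the difference between the tissues depended on the line for 10663 genes, 48.3% of those tested (edgeR interaction test, adjusted p under 0.05). Of the 5931 genes, 2395 had a larger difference in the cultivars and 660 a smaller one, and of the 6059 genes 2036 had a larger and 894 a smaller one in the cultivars. Both sets were chosen for a large difference in the cultivars, which favours larger values there, so these counts are a description. For the vicilin genes the signed value, embryo minus seed coat, was compared. It was higher in the cultivars for 11 of 16, beside 25.6% of all genes tested, and lower for 2, beside 22.6%. Among the members with a larger value in the cultivars, the largest gap was 1.56 for Lcu.2RBY.3g014440 (standard error 0.08, edgeR adjusted p = 4.79e-24). The 2 members with a smaller value in the cultivars were Lcu.2RBY.7g031050, with a difference of -0.79, and Lcu.2RBY.5g065750, with -1.68 (standard error 0.18, edgeR adjusted p = 3.97e-12). Lcu.2RBY.5g065750 was higher in M11 embryos than in M11 seed coats, with 9.11, 10.8 and 10.8 TMM-normalized CPM against 5.36, 8.53 and 4.57 (log2 fold change 0.74, edgeR adjusted p = 1.07e-05). As CPM of library totals, the M11 tissues overlapped for this gene, with 9.99, 12.06 and 11.9 in embryos and 7.96, 12.58 and 6.725 in seed coats. With library totals alone, the signed value was higher in the cultivars for 8 of the 16 vicilin genes and lower for 2. Under this scaling the median of all genes moved to -0.74. The shares of all genes tested, 25.6% and 22.6%, belong to the TMM fit and do not apply there. Shares per direction were not counted with library totals, so the 8 and 2 are a description without a background.

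**Figure D5:**
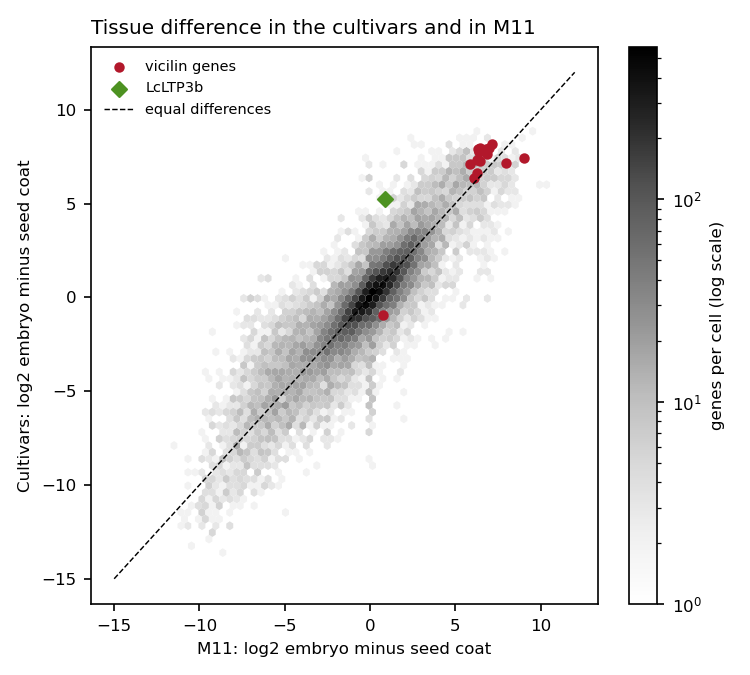
Log2 fold change, embryo minus seed coat, in the cultivars (vertical) and in M11 (horizontal) for 22081 genes, shaded by the number of genes per cell on a log scale; the dashed line marks equal differences. LcLTP3b stands at 5.26 in the cultivars and 0.86 in M11, and Lcu.2RBY.5g065750 at -0.95 and 0.74.

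Genes of both directions were spread over the genome. The share of tested genes at least 2-fold higher in embryos ran from 26.2% to 27.6% over the 7 chromosomes named in the identifiers, and the share lower in embryos ran from 25.8% to 28.0%. Genes on unplaced sequences had 26.3% and 30.0%. The vicilin genes, by contrast, sat mostly on chromosome 6 with 7 members and chromosome 3 with 4. Next to a gene higher in embryos by at least 2-fold, 31.4% of the following tested genes were also higher, beside 26.9% of all following genes, and next to a gene lower in embryos 32.4% were also lower, beside 27.4%. Of the 339 seed coat genes, 10 (2.95%) had a direct neighbour in the set, on either side, and no run was longer than 2 genes. The set was 0.582% of the genes in the table, a share per gene that does not count both sides.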

How the data were processed

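Poly(A) RNA of lentil embryos and seed coats with endosperm was sequenced from TruSeq libraries. The authors deposited whole-number read counts per gene, without normalization, for 18 libraries of 6 groups. STAR 2.7.10 is named in the submitters' processing notes. For the counting tool, genome build, strand setting and reads with several matches, nothing is stated in the sources used here. Groups were taken from the tissue and genotype labels.

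Counts were filtered (filterByExpr), scaled by TMM and fitted with edgeR 4.0.16 in R 4.3.3 as 6 group means over all 18 libraries, with Benjamini-Hochberg adjustment over 22081 genes. DESeq2 1.42.0, other scalings, filters, pairs of groups and libraries left out in turn were alternatives. Single values per library were tested by exact permutation. Totals of 3270275 to 24309401 counts set the precision, and limits from counts of 0 cover counting error only. The fit was tested on simulated data in which few genes changed. That does not test the scaling for data in which most genes differ.

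The text names the 16 vicilin genes and LcLTP3b of the study and, of the called genes whose 6 embryo libraries did not overlap with the 6 seed coat libraries, the 2 per direction with the largest smallest log2 ratio of group means over the 4 pairs of groups (0.5 TMM-normalized CPM added). Members and lists were chosen with earlier results of these data known.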

Additional observations from a re-analysis of the deposited data

Results flagged for a closer look

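The tissue difference differed between Redmoon and Gold as labelled for 12267 genes and between the cultivars and M11 for 10663 genes, each by an edgeR interaction test with Benjamini-Hochberg adjustment. The cultivar labels were at odds between the tissues, so the number for Redmoon against Gold depends on them, and the crossed pairing gave 9173 genes.

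Single genes whose tissue difference in the cultivars differed from that in M11 by the same test are given as differences of log2 fold changes. For vicilin genes it was 1.25 for Lcu.2RBY.1g038070, 1.40 for Lcu.2RBY.3g008770, 1.44 for Lcu.2RBY.3g014420, 1.56 for Lcu.2RBY.3g014440 and 1.52 for Lcu.2RBY.3g014450. It was 0.80 for Lcu.2RBY.4g077560, 0.98 for Lcu.2RBY.6g038150, 0.81 for Lcu.2RBY.6g038160, 1.01 for Lcu.2RBY.6g038550, 1.13 for Lcu.2RBY.6g038570 and 1.06 for Lcu.2RBY.6g038590. The members below 0 were Lcu.2RBY.5g065750 with -1.68 and Lcu.2RBY.7g031050 with -0.79. LcLTP3b (Lcu.2RBY.4g013600) had 4.40. Of the genes named by size, Lcu.2RBY.7g068190 had 2.24 and Lcu.2RBY.5g050030 had 0.85, both higher in embryos, while Lcu.2RBY.5g059060 had -1.21 and Lcu.2RBY.3g072260 had -1.84, both lower in embryos.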

How the results depend on the processing

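Of the named genes, none with a called difference changed direction under the alternatives run, while other single genes were not followed. Some of those did turn, since library totals alone called more genes lower than the 9077 lower and 3674 uncalled genes together. This setting gave 4366 genes higher and 14831 lower in embryos (2-fold: 2959 and 11482), a vicilin median of 6.51, and uncalled differences from M11 of 0.02 for Lcu.2RBY.4g077560, 0.03 for Lcu.2RBY.6g038160, 0.23 for Lcu.2RBY.6g038550 and 0.07 for Lcu.2RBY.5g050030. With at least 10 counts in every cultivar library, 10411 genes were tested, 4961 were higher and 4489 lower (2-fold: 2518 and 1861), 0 of 13 vicilin genes were lower because Lcu.2RBY.5g065750 was not tested, and 7224 and 6802 genes differed by cultivar and from M11. The vicilin median was 7.43 with DESeq2 size factors, 7.01 with totals without vicilin, 7.34 in DESeq2, 6.22 and 9.004 for the Redmoon and Gold pairs as labelled, 8.23 and 6.96 for the crossed pairs, and 7.46 to 7.61 with single libraries left out. The vicilin ratio was 45.7 in Redmoon alone and 196 in Gold alone (exact permutation p = 0.1), 174.7 on TMM-scaled sizes, and 66.5 to 86.9 with single libraries left out. Genes on in embryo only and in seed coat only numbered 1 and 224 at 5 CPM, and 36 and 203 on the TMM scale. Without Redmoon seed coat replicate 2, Lcu.2RBY.6g035140 differed from M11 (0.46, edgeR adjusted p = 0.0413). Apart from the construction of the filter and of the fits with fewer samples, the cause was not tested. Replicate numbers showed no pairing between embryos and seed coats of the same cultivar label (same-number correlations -0.02 to 0.006). Since those labels did not match across the tissues, the crossed pairs were read too, where same-number correlations ran from -0.014 to 0.009. No pairing was thus seen under either reading of the labels. Whether a number marks the same plant stays unknown. The replicate block gave 9311 genes higher and 9031 lower. Depth limits Lcu.2RBY.6g038600 and Lcu.2RBY.7g031150.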

Other observations

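For 3025 of the 22081 genes tested, the 95% interval of the log2 fold change between cultivar embryos and seed coats lay within 0.5 of 0, although 1607 of these genes were called. On the TMM scale, most of them thus differed by a small amount that the spread between these libraries resolved. Which genes lie near 0, and on which side, depends on the scaling. The median of all genes was 0.01 with TMM, -0.56 with totals without the vicilin genes and -1.15 with library totals alone. In M11, 64 genes were on in embryos and off in seed coats and 396 were on in seed coats and off in embryos by the limits of 2 and 0.1 CPM, over 3 libraries a tissue.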
